A study of Mus musculus with 15 samples.

Results

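The genes described here are 10 members of the NF-kB system, taken by symbol from the 23420 genes of the deposited expression table: the subunit genes Nfkb1, Nfkb2, Rel, Rela and Relb, the inhibitor genes Nfkbia, Nfkbib, Nfkbie and Nfkbiz, and Tnfaip3. All 10 were found in the table, and all 10 passed the filter on low values (above 0 in at least 3 libraries), as did 11190 genes in all. Each library held RNA from 100 sorted mouse lymph node cells, and 3 libraries were made in each of 5 groups, 15 in all. The starting cells were CD45.1+ B cells with 1 copy of the B1-8hi knock-in, an antigen receptor that binds the hapten NP. C57BL6 hosts received these cells and NP-CGG in CFA (complete Freund's adjuvant), and draining lymph nodes were taken on day 12. The first 4 groups came from donors that also carried 1 copy of the Bcl6-YFP reporter and were sorted as B220+ CD38lo GL7hi germinal centre cells. Dark zone cells (DZ) were CXCR4hi CD86lo. The 3 light zone groups were CXCR4lo CD86hi, and were CD69lo Bcl6hi (Fraction 3), CD69hi Bcl6hi (Fraction 2) and CD69hi Bcl6lo (Fraction 1). The fifth group, germinal centre derived plasmablasts (GC-PB), was CD45.1+ CD138hi CD44hi tdTomato+. It came from donors with the B1-8hi knock-in, the S1pr2-ERT2cre transgene and the ROSA-Ai14 reporter after tamoxifen on days 6, 7 and 8, so that it holds only cells in which a Cre driven by S1pr2 had acted. The labels call the replicates independent library preparations and name no animals for them, so each p-value reflects library-to-library spread that may be technical only. Whether animals were pooled, and their age, is not given in the sources used here.

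NF-kB is a family of dimeric transcription factors. In resting B cells the dimers are held in the cytoplasm by IkB proteins, and signals from the antigen receptor or from CD40 lead to phosphorylation and breakdown of IkB (the canonical pathway) or to processing of the Nfkb2 precursor, which frees RelB dimers (the alternative pathway). Several genes of the system, among them Nfkbia and Tnfaip3, are themselves NF-kB targets and close a feedback loop. In germinal centres the light zone is where B cells take up antigen and receive T cell help through CD40.

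The deposited totals ran from 27942 to 115088 units per library, which stand for 184103 to 376991 molecules when each library is divided by its own most frequent value above 0 (its constant). No label states that these multiples are molecules, and the word is used here for the multiples as counted. A level is given here as the deposited signal after scaling all libraries to 1 total, without the ribosomal precursor Rn45s, and 1 molecule then stands for a level of 0.15 to 0.325. All 150 values of the 10 members were whole multiples of the constant within a tolerance of 0.02. The Fraction 1 and GC-PB libraries had constants of 0.305 to 0.362 and held Xist, the transcript of the inactive X chromosome, at 12.5 to 20.1. The 9 other libraries had constants of 0.105 to 0.139 and were listed at 0 for Xist, while the Y-linked Ddx3y was 5.45 to 8.66 there and at most 0.0567 in Fraction 1 and GC-PB. The comparison of Fraction 1 with Fraction 2 and that of DZ with GC-PB lie across this split of the libraries, and there the split and the sorted population cannot be told apart. The other pairwise comparisons lie on 1 side of it. The test over all 5 groups, the orders of mean levels and the correlations over the 15 libraries use both sides. Apart from this split, GC-PB came from donors of another genotype and after tamoxifen. In every comparison with GC-PB, that from Fraction 1 included, genotype, tamoxifen and sorted population cannot be told apart. B cell genes were present in every germinal centre group, although Pax5 was at most 0.491 in any library. The 7 B cell markers summed to 309 to 344 in DZ, 333 to 366 in Fraction 3 and 253 to 270 in Fraction 2. They summed to 142 to 162 in Fraction 1 and 110 to 140 in GC-PB. Bcl6 was listed at 0 in GC-PB, and the 7 plasma cell markers summed to 4001 to 5779 in GC-PB against 40.2 to 106 elsewhere. Of the markers of other cells, Cd3e, Cd4, Itgam, Pdpn and Col1a1 were listed at 0 in all 15 libraries, the 11 myeloid markers summed to at most 0.67 and the 6 stromal markers to at most 0.275. The 9 T cell markers summed to 5.09 to 11 in the germinal centre groups and to 14.9 to 16.5 in GC-PB, where Cd28 alone was 11.8 to 15.7. In libraries of sorted cells, fewer cells with a transcript and less of it per cell cannot be told apart.

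Mean levels of both precursor subunits, of Relb and of the classical inhibitors were highest in Fraction 1 and, apart from Nfkbia and Nfkbib, lowest in GC-PB, whereas Rela was called in none of the comparisons of neighbouring groups. A test over all 5 groups (limma, Benjamini-Hochberg adjusted over 11190 genes) called 7 of 10 members, Nfkb1, Nfkb2, Relb, Nfkbia, Nfkbib, Nfkbie and Tnfaip3, where 45.4% of all tested genes were called. Rel (adjusted p = 0.092), Rela (adjusted p = 0.367) and Nfkbiz (adjusted p = 0.147) were not. This test and the ranking of Fraction 1 above DZ, Fraction 3 and Fraction 2 span the split of the libraries by Xist. The part of that split in them was not tested. From DZ to Fraction 3, 1 of 10 members rose and 0 fell (0.465% of tested genes were called higher and 0.411% lower), with a median change of 0.46 over the members against 0.00 over all tested genes. From Fraction 3 to Fraction 2, limma called 0 of 10 members (0.357% of tested genes called higher and 0.223% lower), and 2 had an unadjusted p under 0.05. From Fraction 2 to Fraction 1, 3 of 10 rose and 0 fell (3.4% of tested genes called higher and 5.18% lower), and the median change was 0.73 against -0.05 over all tested genes. From Fraction 1 to GC-PB, 7 of 10 fell and 0 rose (22.7% of tested genes called lower and 14% higher), with a median change of -1.57 against -0.08. Changes are log2 fold changes of level + 1 with their SE, which understate the change of genes at low levels, and adjusted p-values are from limma. Where libraries of 2 groups are said not to overlap, this describes the member only. The share of all tested genes separated in the same way was not taken.

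**Figure D1:**
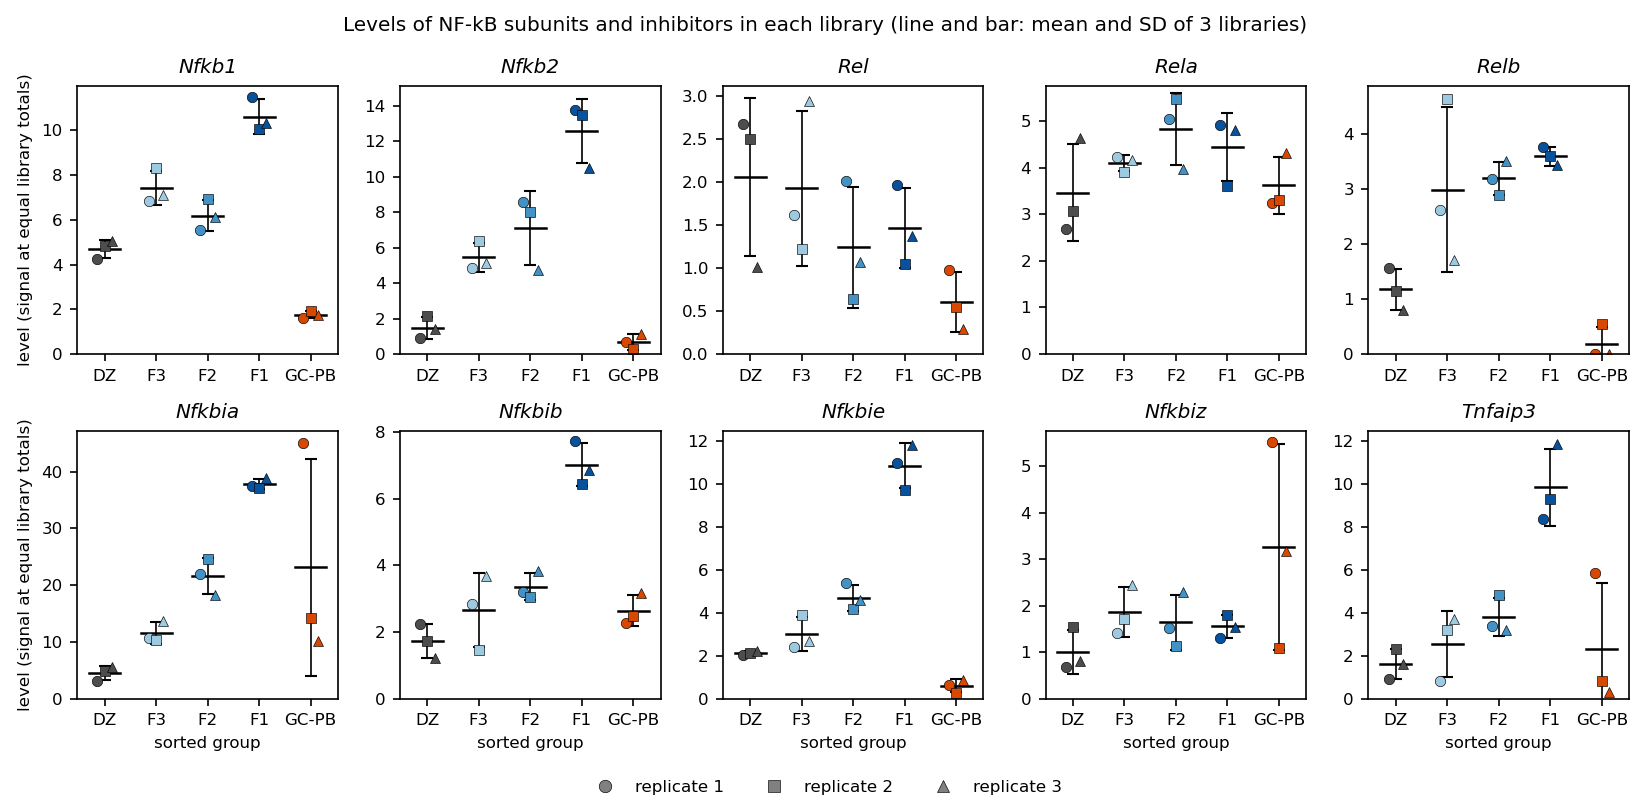
Level of each of the 10 genes (y axis, deposited signal at equal library totals, each panel from 0) in the 5 sorted groups (x axis; F3, F2 and F1 are Fractions 3, 2 and 1), with 1 point per library, the mean as a line and the SD as a bar that is not drawn below 0. All Fraction 1 libraries of Nfkb1, Nfkb2, Nfkbib, Nfkbie and Tnfaip3 lie above all libraries of the other groups, and GC-PB replicate 1 lies far above the other GC-PB libraries for Nfkbia and Tnfaip3. How many of all tested genes separate Fraction 1 in this way was not counted. The separation from DZ, Fraction 3 and Fraction 2 lies across the split by Xist.

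Nfkb1 (chromosome 3, 135584655 to 135691547 on mm10) encodes the precursor of the p50 subunit, which binds DNA but has no activation domain of its own. Its level was 4.25, 4.81 and 5.045 in the DZ libraries, 6.86, 8.31 and 7.125 in Fraction 3, and 5.54, 6.92 and 6.11 in Fraction 2. It was 11.49, 10.05 and 10.31 in Fraction 1 and 1.62, 1.92 and 1.73 in GC-PB. Every Fraction 1 library was thus above, and every GC-PB library below, all libraries of the other groups, while Fractions 2 and 3 overlapped. Nfkb1 rose from Fraction 2 to Fraction 1 by 0.69 ± 0.16 (adjusted p = 0.00731) and fell by 2.07 ± 0.16 from Fraction 1 to GC-PB (adjusted p = 8.34e-10), a ratio of mean levels of 0.166. Its difference between Fraction 3 and DZ, 0.56 ± 0.16, missed the threshold (adjusted p = 0.114), although the libraries did not overlap.

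Nfkb2 (chromosome 19, 46304320 to 46312385) encodes the precursor of p52, the partner of RelB in the alternative pathway. Its level was 0.894, 2.12 and 1.41 in DZ, 4.845, 6.355 and 5.16 in Fraction 3, and 8.57, 8.04 and 4.73 in Fraction 2. In Fraction 1 it was 13.79, 13.5 and 10.48, and in GC-PB 0.65, 0.275 and 1.15. All light zone libraries were above all DZ and GC-PB libraries, Fraction 1 was above every other library, and Fractions 2 and 3 overlapped. Nfkb2 was the only member called between DZ and Fraction 3, where it rose by 1.41 ± 0.24 (adjusted p = 0.00415), a ratio of mean levels of 3.7. The DZ libraries held 22 molecules of it in all, against 71 in Fraction 3. Nfkb2 kept the call without any 1 of the 6 libraries (highest adjusted p = 0.044). The call was lost with the values as deposited (adjusted p = 0.0541) or when only these 6 libraries were fitted (adjusted p = 0.105). Its difference between Fraction 1 and Fraction 2, 0.77 ± 0.24, lay just outside the threshold (adjusted p = 0.0501), and was called with scaling by median ratios (adjusted p = 0.031) or a pseudocount of 2 (adjusted p = 0.0238). Leaving out any 1 of these 6 libraries gave no call for Nfkb2 (0.54 to 0.91, highest adjusted p = 0.268). It fell by 3.03 ± 0.24 from Fraction 1 to GC-PB (adjusted p = 1.7e-09), to a ratio of mean levels of 0.055, where 235 molecules over the Fraction 1 libraries stood against 7 over the GC-PB libraries. Nfkb2 overlaps Psd on the other strand, and whether the counting used the strand is not given in the sources used here.

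The start sites of the members were searched for the kB consensus, the 10-base motif that NF-kB dimers bind, because 7 of the 10 genes were called over the 5 groups. The window was the 250 bases before each RefSeq start (GRCm38.p6), read on both strands, and matches that overlap each other or lie on both strands at one place were taken as 1 site. RefSeq windows were at hand for 7 of 10 members (Nfkb2, Rel, Rela, Nfkbia, Nfkbib, Nfkbie and Tnfaip3). A match was present for 5 of these 7 genes, and for 4.46% of the 27025 genes with RefSeq windows. Over single windows it was 7 of the 10 windows of the members and 3.9% of all 32851. A gene with more than 1 window has more places for a match. Nfkb2 has 3 annotated starts, each with at least 1 match. The sites of its first start are shown, since Nfkb2 was the member called between DZ and Fraction 3, with the match in capitals, followed by that of Rel, a subunit gene whose level was not called between neighbouring groups:
Nfkb2, chr19:46304689-46304717, plus strand, 39 to 29 bases before the start: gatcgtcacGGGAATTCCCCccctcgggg
Nfkb2, chr19:46304716-46304745, plus strand, 11 to 2 bases before the start: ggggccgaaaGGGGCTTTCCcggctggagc
Rel, chr11:23771042-23771070, minus strand, 92 to 82 bases before the start: gtaagcagcGGGAAATCCCCccccctccc
A match is a description of these letters only, and binding was not measured.

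Relb (chromosome 7, 19606217 to 19629438), which encodes the activating partner of p52, was low in DZ at 1.56, 1.155 and 0.807. It was 2.62, 4.64 and 1.72 in Fraction 3, 3.19, 2.9 and 3.51 in Fraction 2 and 3.775, 3.6 and 3.435 in Fraction 1. In GC-PB it was listed at 0 in replicates 1 and 3 and at 0.55 in replicate 2. All light zone libraries lay above all DZ libraries, and the light zone groups overlapped each other. Relb fell by 1.99 ± 0.26 from Fraction 1 to GC-PB (adjusted p = 2.96e-06). Since GC-PB held 2 molecules against 67 in Fraction 1, the ratio of Fraction 1 to GC-PB, 18.4, has a 95% counting interval of 4.89 to 155 (exact, counting error only). None of the steps within the germinal centre passed for Relb (0.83 ± 0.26 with adjusted p = 0.207 from DZ to Fraction 3).

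Rel (chromosome 11, 23736847 to 23770970) and Rela (chromosome 19, 5637483 to 5648130) encode c-Rel and RelA, the subunits that carry activation domains in the canonical pathway. Rela was 2.68 to 4.64 in DZ, 3.91 to 4.24 in Fraction 3, 3.97 to 5.47 in Fraction 2, 3.6 to 4.92 in Fraction 1 and 3.25 to 4.32 in GC-PB, so that every neighbouring pair of groups overlapped. From Fraction 1 to GC-PB its difference was -0.23 ± 0.20 (adjusted p = 0.391), with a 95% interval of -0.64 to 0.17. Rel was 1.01 to 2.68 in DZ, 1.22 to 2.95 in Fraction 3, 0.644 to 2.02 in Fraction 2 and 1.05 to 1.97 in Fraction 1. In GC-PB it was 0.975, 0.55 and 0.288, below every Fraction 1 library, and the difference of -0.62 ± 0.30 missed the threshold (adjusted p = 0.117, interval -1.26 to 0.01). Rel rested on 23 to 30 molecules in each germinal centre group and 6 in GC-PB, which limits what these libraries can show for it.

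Of the classical inhibitors, Nfkbie had the largest called rise into Fraction 1 and the largest fall into GC-PB. Nfkbie (chromosome 17, 45555703 to 45563169) encodes IkB-epsilon, which retains c-Rel and RelA dimers. It was 2.01, 2.12 and 2.22 in DZ, 2.42, 3.91 and 2.7 in Fraction 3 and 5.375, 4.18 and 4.58 in Fraction 2. In Fraction 1 it was 11, 9.75 and 11.85, and in GC-PB 0.65, 0.275 and 0.8645. Each group's libraries were separate from those of its neighbours, from DZ at the lower end through Fractions 3 and 2 to Fraction 1, with GC-PB below all of them. The step from Fraction 2 to Fraction 1 was 1.06 ± 0.20 (adjusted p = 0.00187), and the fall from Fraction 1 to GC-PB was -2.91 ± 0.20 (adjusted p = 2.12e-10), a ratio of mean levels of 0.0549. The 2 earlier steps, 0.35 ± 0.20 and 0.52 ± 0.20, did not pass (adjusted p = 0.606 and 0.312).

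Nfkbia (chromosome 12, 55489410 to 55492647) encodes IkB-alpha, the inhibitor that is broken down first on signalling and made again as an NF-kB target. Its level was 3.13, 4.81 and 5.65 in DZ, 10.7, 10.27 and 13.76 in Fraction 3, 22, 24.62 and 18.32 in Fraction 2 and 37.43, 37.19 and 38.82 in Fraction 1. The 4 germinal centre groups did not overlap and their mean levels stood in the order DZ, Fraction 3, Fraction 2, Fraction 1. None of the 3 steps between them was called for Nfkbia (1.2 ± 0.32 with adjusted p = 0.0859, 0.85 ± 0.32 with adjusted p = 0.289 and 0.79 ± 0.32 with adjusted p = 0.143). The SE is pooled over all groups, and the GC-PB libraries were far apart at 45.16, 14.29 and 10.09. When only Fractions 1 and 2 were fitted, the last of these steps was called (adjusted p = 0.0136).

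The fall of Nfkbia from Fraction 1 to GC-PB, -0.97 ± 0.32 (adjusted p = 0.0203), was between overlapping groups, since GC-PB replicate 1 lay above all Fraction 1 libraries and replicates 2 and 3 well below them. Without GC-PB replicate 1 the change was -1.57. The call was lost without GC-PB replicate 2 (-0.78) or 3 (-0.55), without Fraction 1 replicate 1 (-0.97) or 3 (-0.95), with scaling by median ratios (-0.69, adjusted p = 0.114), without the intensity trend of the fit (adjusted p = 0.0553) and when only the 6 libraries were fitted (adjusted p = 0.22).

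Nfkbib (chromosome 7, 28758251 to 28767512) encodes IkB-beta. Its level was 1.73 ± 0.51 (SD, n = 3) in DZ, 2.66 ± 1.12 in Fraction 3, 3.36 ± 0.41 in Fraction 2, 7.01 ± 0.65 in Fraction 1 and 2.64 ± 0.47 in GC-PB. All Fraction 1 libraries (6.45 to 7.72) were above all others, which lay at 1.21 to 3.82. Nfkbib rose from Fraction 2 to Fraction 1 by 0.88 ± 0.23 (adjusted p = 0.0183) and fell by 1.14 ± 0.23 from there to GC-PB (adjusted p = 0.000364). The first of these calls was lost without Fraction 2 replicate 1 (0.85) or 2 (0.83) or without Fraction 1 replicate 1 (0.82) or 3 (0.89). The gene overlaps Sirt2 on the other strand.

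For the inhibitors, the 250 bases before the RefSeq start are shown for Nfkbia and Nfkbie, the IkB genes with the highest levels in Fraction 1 relative to DZ, with the kB match in capitals:
Nfkbia, chr12:55492648-55492897, minus strand: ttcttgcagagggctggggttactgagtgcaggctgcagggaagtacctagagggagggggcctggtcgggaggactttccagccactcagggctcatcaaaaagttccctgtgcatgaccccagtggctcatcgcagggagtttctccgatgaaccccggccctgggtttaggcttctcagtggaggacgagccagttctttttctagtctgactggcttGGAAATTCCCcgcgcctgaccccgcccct
Nfkbie, chr17:45555450-45555699, plus strand: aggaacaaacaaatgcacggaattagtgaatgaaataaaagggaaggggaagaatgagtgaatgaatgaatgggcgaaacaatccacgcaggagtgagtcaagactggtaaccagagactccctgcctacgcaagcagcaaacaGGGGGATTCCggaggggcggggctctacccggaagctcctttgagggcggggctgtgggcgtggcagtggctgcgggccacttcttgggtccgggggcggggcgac
The match of Nfkbia lies 29 to 20 bases before the start and that of Nfkbie 106 to 97 bases before it. Rela and Nfkbib had no match in their windows, which says only that these letters are not there.

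Tnfaip3 (chromosome 10, 19000910 to 19015657) encodes a ubiquitin-editing enzyme that ends NF-kB signalling upstream of IkB. It was 0.894, 2.31 and 1.61 in DZ, 0.8075, 3.18 and 3.685 in Fraction 3, 3.36, 4.83 and 3.21 in Fraction 2 and 8.37, 9.3 and 11.85 in Fraction 1. The GC-PB libraries were at 5.85, 0.825 and 0.288, that is 18, 3 and 1 molecules. All Fraction 1 libraries were above all others, and GC-PB replicate 1 again stood above the other GC-PB libraries. Tnfaip3 fell by 2.09 ± 0.43 from Fraction 1 to GC-PB (adjusted p = 0.000549), and by 2.81 without GC-PB replicate 1. With only these 6 libraries fitted the call was lost (adjusted p = 0.0524). The difference of 1.18 ± 0.43 between Fractions 1 and 2 did not pass in the fit of all groups (adjusted p = 0.101) and did when only these 6 libraries were fitted (adjusted p = 0.0169). Of its annotated starts, the first has kB matches, shown here because Tnfaip3 shared the separation of Fraction 1 with Nfkbie:
Tnfaip3, chr10:19015516-19015545, minus strand, 125 to 116 bases before the start: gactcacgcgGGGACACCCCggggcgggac
Tnfaip3, chr10:19015403-19015432, minus strand, 12 to 3 bases before the start: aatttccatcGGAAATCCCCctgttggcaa

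Nfkbiz (chromosome 16, 55811375 to 55838899) encodes a nuclear IkB that acts with p50 on chosen targets and does not hold dimers in the cytoplasm. It was the only member with a higher mean in GC-PB than in Fraction 1. Its level was 1.31 to 1.8 in Fraction 1 and 5.52, 1.1 and 3.17 in GC-PB, where replicate 2 lay below every Fraction 1 library. The difference of 0.60 ± 0.32 did not pass (adjusted p = 0.157), and it did without GC-PB replicate 2 (1.03, adjusted p = 0.00773). Nfkbiz was 0.67 to 1.54 in DZ, 1.41 to 2.46 in Fraction 3 and 1.13 to 2.29 in Fraction 2, and no step within the germinal centre passed.

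**Figure D2:**
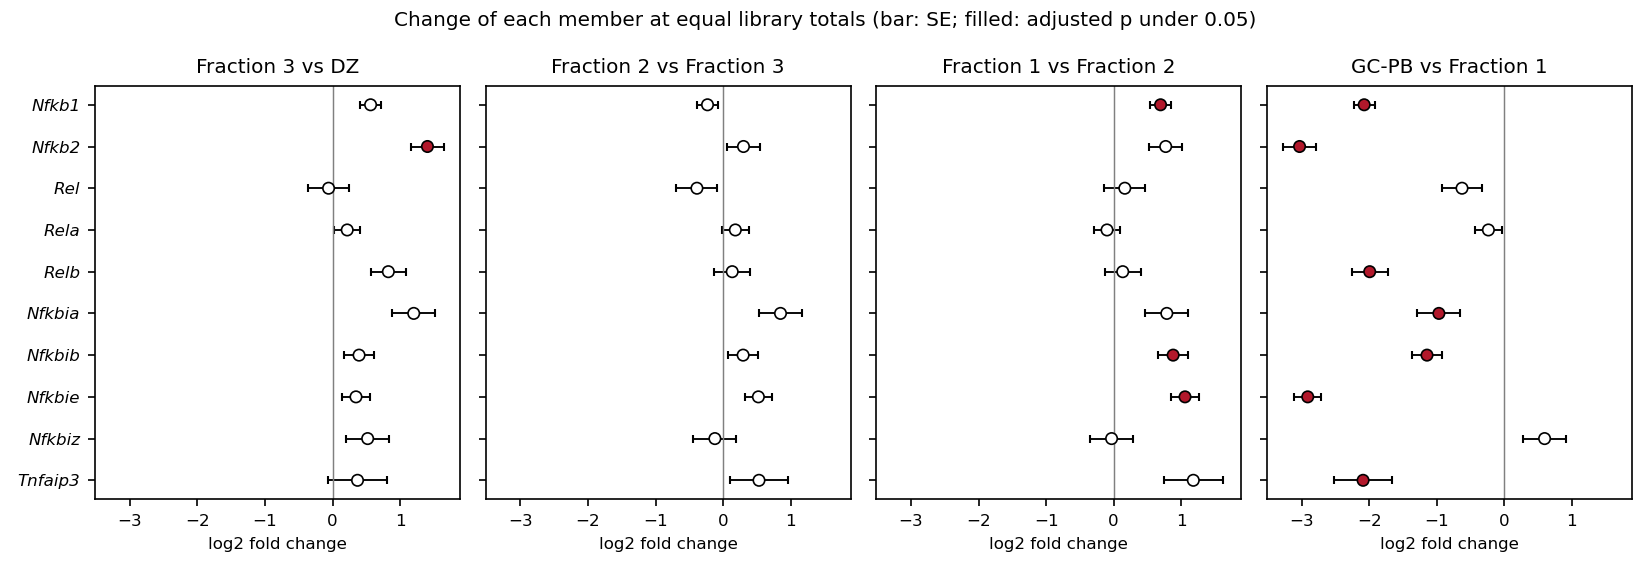
Log2 fold change (x axis) of each member (y axis) in the 4 neighbouring comparisons at equal library totals, with the SE as a bar and filled points for an adjusted p under 0.05. Filled points number 1, 0, 3 and 7 from left to right, and all 7 in the last panel lie below 0.

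GC-PB replicate 1 differed from the other GC-PB libraries in more than these genes. Cd69, an activation marker used in the light zone sort, was 22.42 there against 5.77 and 4.9, and Icam1, an adhesion receptor gene on the target list, was 4.87 against 0.825 and 0.576. Replicate 1 held 184103 molecules, against 216584 and 203865 in the others. Its 7 plasma cell markers summed to 5779 against 4001 and 4585, and its 7 B cell markers to 140.3 against 110.1 and 121.6. The part of these differences in the results for Nfkbia, Nfkbiz and Tnfaip3 was not tested. Without it, 7 members were called in the comparison of GC-PB with Fraction 1, and without any other 1 of the 6 libraries 6 or 7 were.

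Few members were called in the steps within the germinal centre, so Fraction 2 was also set against DZ. This comparison was chosen after the data were seen and lies on 1 side of the split by Xist. Here 4 of 10 members rose and 0 fell (1.58% of tested genes were called higher and 1.71% lower). As deposited, 5 rose and 0 fell, with Nfkb1 added (3.03% and 0.42% of tested genes). Nfkb2 rose by 1.71 ± 0.24 (adjusted p = 0.00016), Nfkbia by 2.05 ± 0.32 (adjusted p = 0.000408), Nfkbie by 0.87 ± 0.20 (adjusted p = 0.0167) and Relb by 0.96 ± 0.26 (adjusted p = 0.0477). The calls of Nfkb2 and Nfkbia held without any 1 library. That of Relb was lost without any 1 of the 6 libraries (0.83 to 1.09), and that of Nfkbie without DZ replicate 1 (0.84) or 2 (0.87) or Fraction 2 replicate 1 (0.79) or 3 (0.88). For Nfkb1 the difference at equal totals (0.33 ± 0.16, adjusted p = 0.341) did not pass, although every Fraction 2 library was above every DZ library. This comparison shares its libraries with the 2 steps given above.

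GC-PB was also set against DZ, again after the data were seen, to order the lowest groups. At equal totals Nfkb1 (-1.05 ± 0.16), Nfkbie (-0.98 ± 0.20), Rel (-0.91 ± 0.30) and Relb (-0.90 ± 0.26) were lower in GC-PB, and Nfkbia (1.87 ± 0.32) and Nfkbiz (0.97 ± 0.32) were higher, with adjusted p-values of 1.61e-05, 0.00053, 0.0231, 0.0105, 6.88e-05 and 0.0216 (23.6% of tested genes were called lower and 12.4% higher). The median of all tested genes was -0.13 here. For Nfkb2 the difference was -0.55 ± 0.24 (adjusted p = 0.0798), and it was called lower without DZ replicate 1 (-0.73) or GC-PB replicate 3 (-0.74). As deposited, none of the 4 lower members was called, and Nfkbia, Nfkbiz, Rela and Nfkbib were higher (30.5% of tested genes were called higher and 5.85% lower). The lower members kept a negative sign there (-0.22 for Nfkb1, -0.37 for Nfkbie, -0.33 for Rel and -0.47 for Relb). With scaling by median ratios Nfkb1, Nfkbie and Relb were still called lower, and Rel was not (-0.73, adjusted p = 0.0719). Nfkbib was then called higher (0.70, adjusted p = 0.0207), so that 3 members were called higher and 3 lower. The call of Rel was lost without DZ replicate 1 (-0.75) or 2 (-0.78) or GC-PB replicate 2 (-0.89) or 3 (-0.76), that of Relb without DZ replicate 1 (-0.77), and that of Nfkbiz without DZ replicate 1 (0.85) or 3 (0.90) or GC-PB replicate 1 (0.59) or 3 (0.91). With only these 6 libraries fitted, 3 members were called, all lower, and Nfkbia was not (adjusted p = 0.0515). Shares over all tested genes were not taken for this fit or for median ratios. In the order of mean levels, Nfkb1 ran GC-PB, DZ, Fraction 2, Fraction 3, Fraction 1, and Nfkb2, Relb and Nfkbie ran GC-PB, DZ, Fraction 3, Fraction 2, Fraction 1. Nfkbia and Tnfaip3 had DZ lowest and Fraction 1 highest.

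The scale of the values mattered most for Fraction 1. The mean deposited total was 110747 ± 3890 (SD, n = 3) in Fraction 1, 40215 ± 1843 in Fraction 2 and 72158 ± 5981 in GC-PB. As deposited, all 10 members were called higher in Fraction 1 than in Fraction 2, by 0.91 (Nfkbiz) to 2.45 (Tnfaip3), where 54.7% of tested genes were called higher, 0.563% lower, and the median of all tested genes was 0.64. At equal totals Rela (-0.10) and Nfkbiz (-0.03) had the opposite sign, and neither passed. From Fraction 1 to GC-PB, 9 of 10 members were lower as deposited (45.8% of tested genes were called lower and 11.2% higher), with Rel (-1.17, adjusted p = 0.00175) and Rela (-0.85, adjusted p = 0.00071) added to the 7. The median of all tested genes was then -0.42. With scaling by median ratios, 6 members were called lower, and the share over all tested genes was not taken. At equal totals the 7 plasma cell markers held 7.43% to 10.7% of the total in GC-PB and 0.0747% to 0.197% elsewhere. Their part in the falls into GC-PB was not tested. From Fraction 3 to Fraction 2, Nfkbia (1.2, adjusted p = 0.0426) and Nfkbie (0.76, adjusted p = 0.0383) were higher as deposited (2.67% of tested genes were called higher and 0.0179% lower). From DZ to Fraction 3 limma called 0 members as deposited (0.116% of tested genes were called higher and 0.125% lower), and 4 had an unadjusted p under 0.05. The 7 members that fell into GC-PB therefore did so on both scales, with the limits given for Nfkbia and Tnfaip3.

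**Figure D3:**
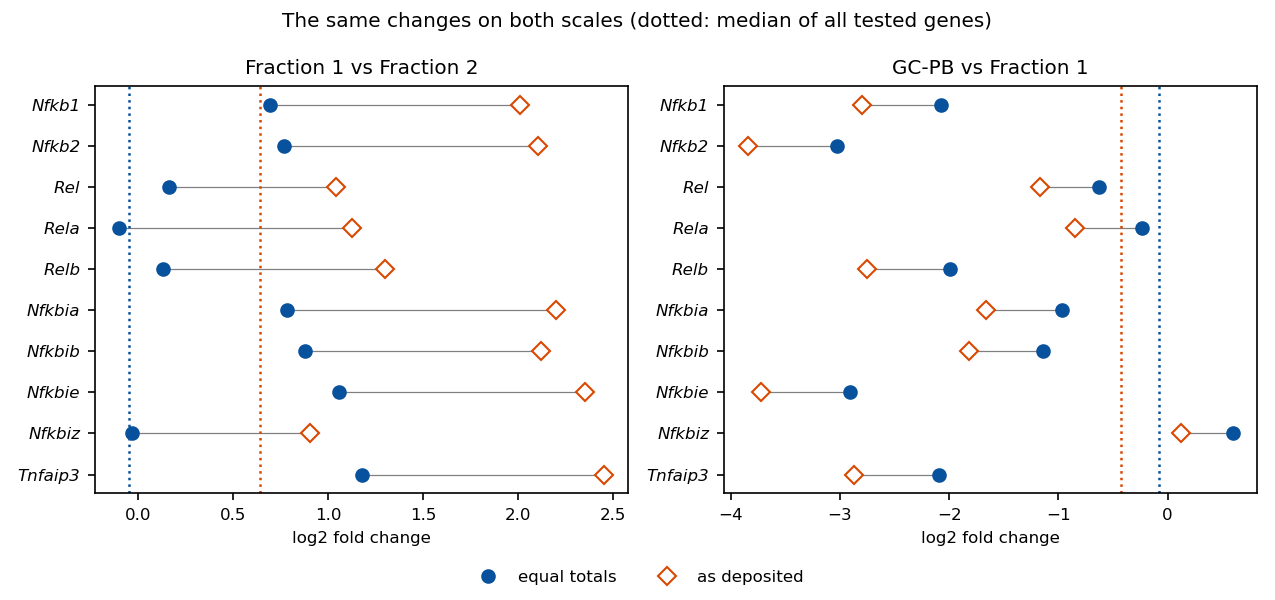
Log2 fold change (x axis) of each member (y axis) from Fraction 2 to Fraction 1 and from Fraction 1 to GC-PB, at equal library totals (circles) and as deposited (diamonds), with the median of all tested genes on each scale as a dotted line. As deposited, all 10 members lie above 0 on the left, and 9 of 10 lie below 0 on the right.

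Other genes of the pathway, 88 on 4 lists that were chosen with earlier results of these data known, were counted in the same fits, and 79 of them could be tested. From DZ to Fraction 3, 5 of 79 rose and 0 fell (0.465% of all tested genes were called higher and 0.411% lower). They included the BAFF receptor gene Tnfrsf13c, which was 37.8 ± 4.21 against 19.4 ± 1.81 (0.92 ± 0.14, adjusted p = 0.00275), and the targets Cd83 (1.82 ± 0.27), Slamf1 (1.31 ± 0.21) and Myc (1.49 ± 0.25). The remaining call was Cd86, at 7.2 ± 0.48 against 2.22 ± 1.47 (1.45 ± 0.24). Cells were sorted as CD86lo in DZ and CD86hi in Fraction 3, so this rise is not independent of the sort. With only these 6 libraries fitted, the calls of Tnfrsf13c (adjusted p = 0.0707), Slamf1 (adjusted p = 0.0718) and Myc (adjusted p = 0.156) were lost. From Fraction 3 to Fraction 2, 5 of 79 rose and 0 fell (0.357% of all tested genes were called higher and 0.223% lower). Cd40 itself rose from 2.39 ± 0.35 to 6.16 ± 0.87 (1.08 ± 0.23, adjusted p = 0.0325) and Birc3, a ubiquitin ligase gene of the CD40 pathway, from 3.08 ± 0.41 to 7.39 ± 0.58 (1.04 ± 0.17, adjusted p = 0.00538). The other 3 were the survival genes Bcl2a1a, Bcl2a1b and Bcl2a1d, near-identical copies whose reads may have been split between them. Without 1 library this count was 1 to 4, and with only the 6 libraries fitted it was 0. The calls of Cd40 (0.99 to 1.16) and Bcl2a1a (0.89 to 1.11) were lost without any 1 of the 6 libraries, that of Bcl2a1b without Fraction 3 replicate 1 (1.10) or Fraction 2 replicate 2 (1.13), and that of Bcl2a1d without Fraction 2 replicate 2 (1.06).

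From Fraction 2 to Fraction 1, 13 of 28 tested target genes rose and 0 fell (3.4% of all tested genes were called higher and 5.18% lower), with a median change of 0.61. The 3 Bcl2a1 copies had the smallest p, led by Bcl2a1d (1.70 ± 0.22, adjusted p = 4.73e-05). Cd40 rose further to 11.5 ± 1.18 (0.81 ± 0.23, adjusted p = 0.0293) and Birc3 to 13.9 ± 0.91 (0.83 ± 0.17), where the call of Cd40 was lost without any 1 of the 6 libraries (0.72 to 0.90). None of the 17 tested other IkB proteins and regulators was called in this step. Germinal centre markers were also lower in Fraction 1, where 7 of them summed to 30 to 42.9 against 94.2 to 107 in Fraction 2, and their part in these results was not tested.

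From Fraction 1 to GC-PB, 34 of 79 genes fell and 5 rose, among them 19 and 1 of 28 targets (22.7% of all tested genes were called lower and 14% higher). The 19 include Cd86, at 10.1 ± 0.72 in Fraction 1, which was sorted as CD86hi, and listed at 0 in GC-PB. The split depended on the scaling, with 52 lower and 1 higher as deposited (45.8% of all tested genes called lower and 11.2% higher). It was 33 lower and 11 higher with median ratios, where the share over all tested genes was not taken. The 3 Bcl2a1 copies and Cd40 (0.3 ± 0.29 against 11.5 ± 1.18, -3.29 ± 0.23, adjusted p = 2.02e-10) had the smallest p among them. Bcl3, a nuclear IkB that acts with p50 and p52, fell from 6.48 ± 0.63 to 0.2 ± 0.17 (-2.65 ± 0.24), and Nfkbid, the other nuclear IkB on the list, by 1.17 ± 0.26. In the canonical pathway Prkcb, a kinase downstream of the antigen receptor, fell by 2.57 ± 0.25, Myd88, the adaptor of Toll-like receptors, by 1.94 ± 0.27 and the ubiquitin-conjugating enzyme gene Ube2n by 1.09 ± 0.17. Birc3 fell by 2.24 ± 0.17 and Tnfrsf13c by 1.29 ± 0.14. Otud7b, a deubiquitinase gene, rose by 1.01 ± 0.23 at equal totals and was not called as deposited (0.45, adjusted p = 0.0989). The kinase gene Chuk (IKK-alpha) rose to 3.66 in GC-PB from 2 in Fraction 1 (0.70 ± 0.27, adjusted p = 0.0488) and was not called as deposited (0.24, adjusted p = 0.494). The other core genes were not called at equal totals, with Ikbkb 1.5 against 2.49 (-0.49 ± 0.22, adjusted p = 0.0932) and Ikbkg 1.31 against 1.52 (-0.16 ± 0.28, adjusted p = 0.695). As deposited, both Ikbkb (-1.08, adjusted p = 0.000125) and Ikbkg (-0.68, adjusted p = 0.0334) were called lower. These 3 genes of the IKK core were named after their values were seen.

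**Figure D4:**
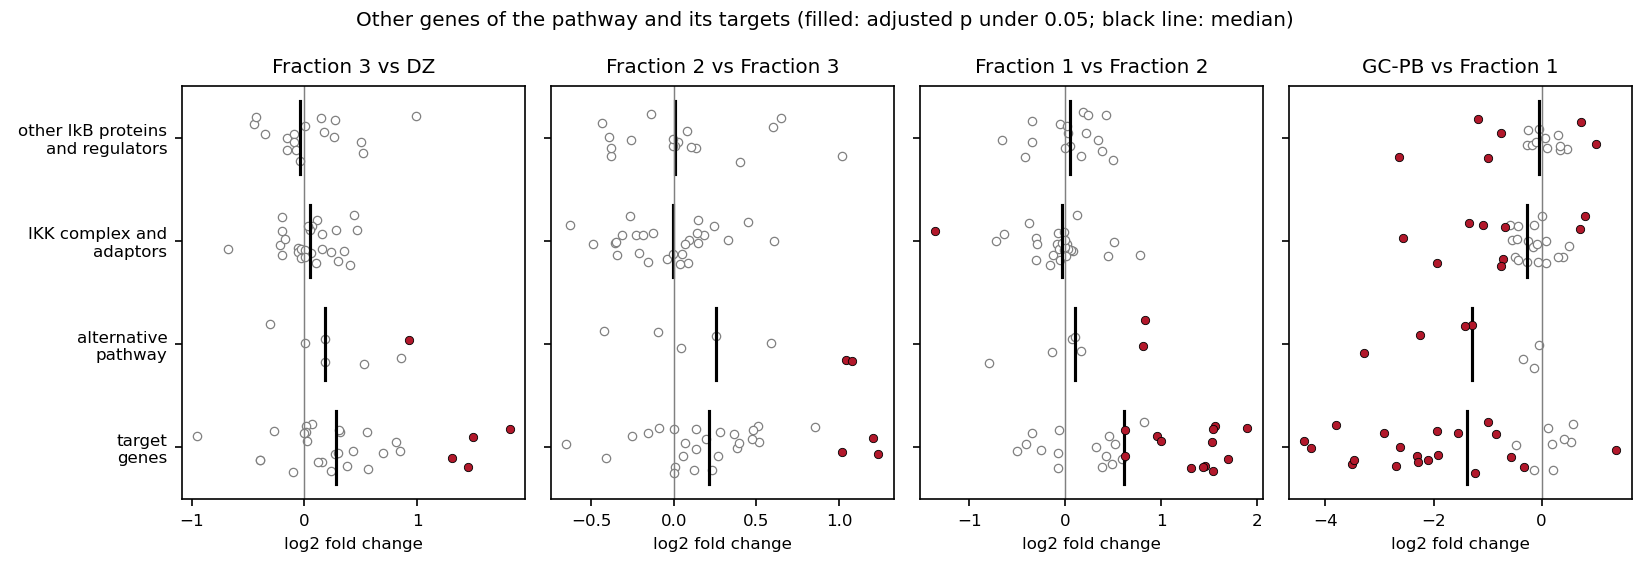
Log2 fold change (x axis, with its own range in each panel) of the 79 tested genes on 4 pathway lists (y axis) in the 4 neighbouring comparisons at equal library totals, with 1 point per gene, filled where the adjusted p was under 0.05, and the list's median as a black line. The target genes have a median of 0.61 from Fraction 2 to Fraction 1 and of -1.39 from Fraction 1 to GC-PB.

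The genes most like a member over the 15 libraries were taken for the 3 members with the smallest p over the 5 groups, by Pearson's r of log2(level + 1) among 5594 other genes at or above the median level. All points share the 5 groups and span the split of the libraries by Xist, and r is given as a description. For Nfkb2 these were Slamf1 (r = 0.962), the lysosomal thiol reductase gene Ifi30 (r = 0.961) and Cd40 (r = 0.946). For Nfkb1 they were Ncf1, a subunit gene of the phagocyte oxidase (r = 0.978), Set (r = 0.964) and the lactate dehydrogenase gene Ldha (r = 0.961). For Nfkbie they were Wdr43 (r = 0.978) and Pa2g4 (r = 0.972), both of ribosome production, and Bcl2a1b (r = 0.974). Slamf1 had a mean level of 1.15 in DZ, 4.315 in Fraction 3, 5.945 in Fraction 2, 8.71 in Fraction 1 and 0.308 in GC-PB, which is the order of Nfkb2.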

How the data were processed

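The table holds a signal that the authors deposited per gene and library, with no unit stated. Per the labels' protocols, equal ERCC spike-in RNA was added to each tube of 100 cells, cDNA was tagged with molecular barcodes, and the library was made by template switching and PCR. TopHat2 and mm10 are named in the submitters' processing notes, and the counting is not given in the sources used here. Between 91% and 92.6% of values above 0 were whole multiples of the library's constant, so a count model was not used. Libraries were scaled to equal totals without Rn45s (to 53845, the mean), since the mean deposited totals differed by up to 2.75 times between neighbouring groups. One model of the 5 group means was fitted to log2(level + 1) by limma 3.58.1 (R 4.3.3), its variance prior following the mean level, for genes that at least 3 libraries held above 0. A gene was called when its p, adjusted by Benjamini-Hochberg over all of them, was under 0.05. The method was also run on simulated data with the same spread in all libraries and changes in Fraction 1 only. That run does not cover the wider spread between the GC-PB libraries, and no conclusion is drawn from it here. The members and lists were chosen with earlier results of these data known. Named were all members and, per list and comparison, up to 3 called genes with the smallest p, some of which are not reported here. Alternatives were other scalings, pseudocounts and filters, no trend, a replicate block, 2-group fits and leaving out each library. Positions came from GENCODE M21 (mm10) and start windows from RefSeq. Figures were made with matplotlib 3.10.9 in Python 3.11.15.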

Additional observations from a re-analysis of the deposited data

How the results depend on the processing

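With the values as deposited, members called were 0 from DZ to Fraction 3, 2 from Fraction 3 to Fraction 2 and 10 from Fraction 2 to Fraction 1, and pathway genes called were 8 and 69 in the last 2 of these. There Nfkb1 (0.13) and Nfkbiz (0.12) changed sign from Fraction 3 to Fraction 2, Rela (1.12) and Nfkbiz (0.91) from Fraction 2 to Fraction 1 and Tnfaip3 (0.56) from DZ to GC-PB. Pathway genes called from Fraction 3 to Fraction 2 were 3 with median ratios, 3 with a pseudocount of 0.5 and 0 with only the 2 groups fitted. With only the 2 groups fitted, members called were 0 from DZ to Fraction 3 (pathway genes 2), 5 from Fraction 2 to Fraction 1 and 3 from DZ to GC-PB. With a filter of 8 libraries, 2 members were called from DZ to Fraction 3. Shares of all tested genes called were taken only at equal totals and as deposited. Counts of members and pathway genes under every other setting, or without single libraries, therefore cannot be set against such a share. Sign changes among values that passed no test were Nfkbiz with median ratios (0.036, Fraction 2 to Fraction 1) and Tnfaip3 from DZ to GC-PB with median ratios (0.21) or a pseudocount of 2 (0.057).

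Leaving out 1 library at a time gave 2 to 3 members called from DZ to Fraction 2, and 1 to 4 pathway genes called from Fraction 3 to Fraction 2, lowest without Fraction 2 replicate 2. Values that passed no test spanned both signs for Rel from DZ to Fraction 3 (-0.34 to 0.12) and from Fraction 2 to Fraction 1 (-0.036 to 0.40), and for Relb from Fraction 3 to Fraction 2 (-0.11 to 0.42). The same held for Nfkbiz from Fraction 3 to Fraction 2 (-0.29 to 0.024) and from Fraction 2 to Fraction 1 (-0.18 to 0.14), for Rela from Fraction 2 to Fraction 1 (-0.21 to 0.019) and from DZ to GC-PB (-0.062 to 0.25), and for Tnfaip3 from DZ to GC-PB (-0.73 to 0.48).

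With the replicate number as a block, pathway genes called from Fraction 3 to Fraction 2 were 3, without Cd40 and Bcl2a1a, and no call of a member changed. Deviations from the group means correlated between same-numbered libraries at -0.038 to 0.037, so the numbers are not taken to pair them. The causes of these differences were not tested. Members with few molecules are limited by depth. Among them are Rel and Nfkbiz in all groups, and Nfkb1, Nfkb2, Relb, Nfkbib, Nfkbie and Tnfaip3 in GC-PB. In DZ they include Nfkb2 (22 molecules), Relb (17), Nfkbib (25) and Tnfaip3 (24).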

Other observations

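Among the 4858 genes with a mean level in GC-PB at or above the median of tested genes, 2.8% were more than 2 times higher in GC-PB replicate 1 than in both other GC-PB libraries, against 1.54% and 1.83% for replicates 2 and 3. Of the 6 members at that level, Nfkbia and Tnfaip3 were so in replicate 1 and none in the other libraries. The 41 pathway genes at that level included Icam1, Myc and Plek for replicate 1, Bcl2l1 for replicate 2, and Cyld and Nkiras2 for replicate 3. Myc was 3.25 in replicate 1 against 1.37 and 1.44, and Plek was 7.47 against 2.47 and 2.31. These genes were chosen after their values were seen.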
